A study of Coturnix japonica with 54 samples.

Results

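The step from 10 h to 12 h of light per day during a simulated spring was examined in the pituitary gland of male Japanese quail (Coturnix japonica), a bird that breeds on long days. The 12 birds are all those with the treatment label 12Lv (6 birds) or 10Lv (6 birds), out of 54 birds at 9 photoperiods. The step was singled out with its higher gonadotropin gene levels already known from these data, so that the values of FSHB and CGA are not independent evidence. Each of the 12 birds had started on 16 h of light and had been taken down to 8 h and back up by 2 h at a time, staying 2 weeks on each photoperiod. Birds at 10Lv were sampled 1 step after 8 h, and birds at 12Lv a further step later, so that both groups share the preceding short days and differ in the last photoperiod and in time. Each library came from 1 bird, and birds were picked for sampling with body mass as a guide. The sources used here do not state strain or age. RNA was read as long Nanopore cDNA reads. A level is given in CPM, the count of a gene's most abundant transcript divided by the library's total of such counts and multiplied by 1000000.

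In birds, lengthening days are sensed by photoreceptors deep in the brain. Thyrotropin from the pars tuberalis, the tissue at the stalk of the pituitary, then changes thyroid hormone conversion in the hypothalamus, and gonadotropin-releasing hormone stimulates the gonadotrophs. Gonadotrophs make follicle-stimulating hormone from an alpha subunit, encoded by CGA and shared with luteinizing hormone and thyrotropin, and a specific beta subunit, encoded by FSHB. Lactotrophs make prolactin (PRL), corticotrophs process the POMC precursor into adrenocorticotropin, and thyrotrophs make the thyrotropin beta subunit (TSHB). LHB, GH, GNRHR and MTNR1A were not analysed here.

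Libraries were shallow and uneven. Totals ran from 6542 to 26609 counts at 10Lv and from 4826 to 45200 at 12Lv, with means of 14218 ± 7439 and 18184 ± 15126 (SD, n = 6 each). Genes with a count ran from 725 to 6610 and from 963 to 6448. Fewer than 2000 genes were detected in 10Lv replicate 6 and in 12Lv replicates 1 and 6, among 9 such libraries of 54. ACOT9, an acyl-CoA thioesterase and the gene with the most counts of the series, took 5.13% to 13.3% of a library at 10Lv and 3.52% to 27.4% at 12Lv. Of the hormone genes analysed, CGA, PRL and POMC had counts in all 12 birds, FSHB in 4 of 6 at 10Lv and 6 of 6 at 12Lv, and TSHB in 4 of 6 of each group.

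At 12Lv 2 genes rose and 1 gene fell among the 1460 genes that passed the filter on low counts. The genes that rose were FSHB and LOC107319226, a protein-coding locus without a symbol, and the gene that fell was LOC107323085, also a protein-coding locus without a symbol. The threshold was an adjusted p of 0.05 in edgeR's quasi-likelihood test, and the share called was 0.137% higher and 0.0685% lower. At an unadjusted p under 0.05, 34 genes were higher (2.33%) and 33 lower (2.26%). The median log2 fold change over all genes tested was 0.03, and 52.1% of genes had a positive value.

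**Figure D1:**
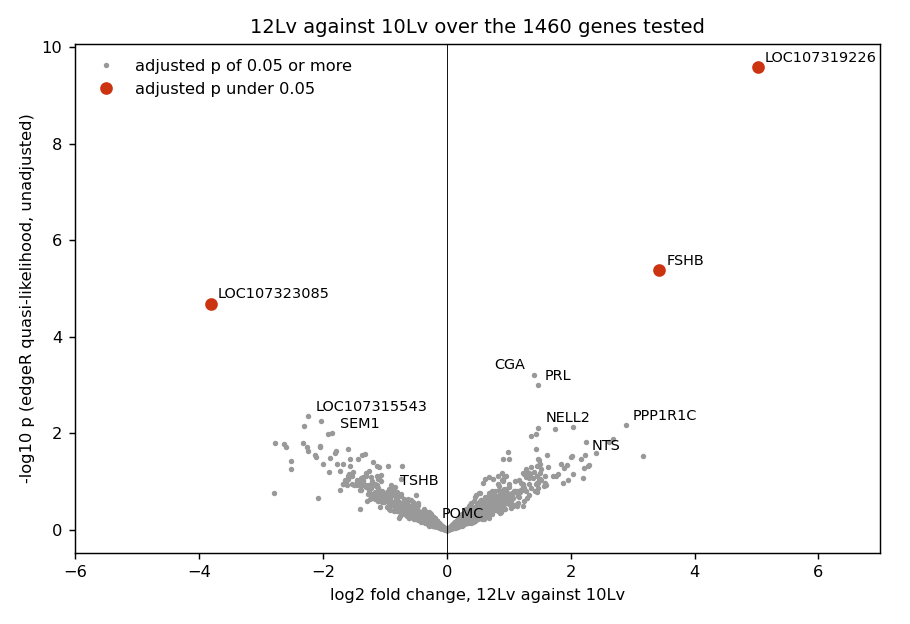
Log2 fold change of 12Lv against 10Lv (x axis) and -log10 of the unadjusted edgeR p (y axis) for the 1460 genes tested, with 1 point per gene. The 3 red points are genes past the adjusted threshold, LOC107319226 at 5.02, FSHB at 3.43 and LOC107323085 at -3.81, and CGA and PRL are the next highest points among genes with a positive value.

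FSHB had few or no counts in each bird at 10Lv and was present in every bird at 12Lv. The 6 birds at 10Lv had 0, 579.5, 0, 50.9, 541 and 153 CPM, and the 6 birds at 12Lv had 1243, 735, 1637, 2412, 3695 and 1383 CPM. Every 12Lv bird was above every 10Lv bird, and the 3 libraries with few genes fell on the side of their own group. The separation rests on few counts. The nearest birds, 10Lv replicate 2 and 12Lv replicate 2, had 6 and 12 counts, and 12Lv replicate 1 had 6. The means were 221 ± 269 and 1851 ± 1058 CPM (SD, n = 6 each), from 14 counts in 4 birds and 262 counts in 6 birds. FSHB rose by 3.43 ± 0.65 on the log2 scale (SE; edgeR adjusted p = 0.003078). The exact permutation test on CPM over all splits of the 12 birds gave a two-sided p of 0.002165, the smallest it can give, which was 0.5267 after adjustment over all genes tested. This test put 38 genes (2.6%) at an unadjusted p under 0.05 and none (0.0%) at an adjusted p under 0.05. With 6 birds per group, a gene could pass after adjustment only if many genes reached the smallest p. The adjusted values of this test therefore cannot decide on single genes in either direction. The step was singled out with the higher levels of FSHB and CGA known. The p-values of FSHB and CGA for this step thus test values used in that choice and are not independent evidence. The same holds for their p-values in other settings and with a bird left out. In bulk tissue, more cells of a type and more RNA per cell cannot be told apart.

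The 10Lv values of FSHB rest on few reads. Replicates 2 and 5 had 6 counts each, replicates 4 and 6 had 1 each, and replicates 1 and 3 had none of 26609 and 11061 counts, which allows up to 113 and 271 CPM. Pooled over birds, the 12Lv level was 14.6 times the 10Lv level (95% exact counting interval 8.57 to 27.1). Here and below, such intervals cover counting error only and leave out the spread between birds. 12Lv replicate 5, the deepest library of both groups, held 167 of the 262 counts (63.7%), and without it the ratio was 9.06 (5.14 to 17.2). FSHB kept its call when each bird was left out in turn, with log2 fold changes from 2.91 to 4.07. The 2 values above 4 came without 10Lv replicate 2 (4.07) and replicate 5 (4.03), the birds with 6 counts each. It missed the threshold with counts summed over transcripts (3.15, adjusted p = 0.4554) and in limma on the deposited normalised values (5.05, adjusted p = 0.6549), where 6 of 6 birds at 12Lv were again above every 10Lv bird.

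CGA, the shared alpha subunit, was higher in every 12Lv bird than in any 10Lv bird, without passing the threshold across all genes. Birds at 10Lv had 5111, 9176, 7956, 4325, 6763 and 4586 CPM, and birds at 12Lv had 15956, 13779, 12496, 10807, 31327 and 14447 CPM. The lowest 12Lv bird was above the highest 10Lv bird, and 12Lv replicate 5 stood far above the other 12Lv birds. The means were 6319.5 ± 1974 and 16469 ± 7486 CPM (SD, n = 6 each), from 509 and 2246 counts. The log2 fold change was 1.41 ± 0.41 (SE; edgeR adjusted p = 0.2248), and the exact permutation p was 0.002165 (0.5267 adjusted). The call depended on the setting. CGA passed with size factors by median of ratios (adjusted p = 0.02007), in DESeq2 (0.0001163) and with a minimum count of 10 (0.04193). It also passed with birds ranked by number and the rank as a factor (0.0033) and without the libraries under 2000 genes (0.04566). It missed the threshold in the other settings (adjusted p from 0.07858 to 0.6872) and with each bird left out in turn (0.1279 to 0.972). 12Lv replicate 5 held 1416 of the 2246 counts at 12Lv. Without that bird the log2 fold change was 1.02 (adjusted p = 0.972). In the deposited values 5 of 6 birds at 12Lv were above every 10Lv bird, since the highest 10Lv bird stood at 3631 and the lowest 12Lv bird at 3621.

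LOC107319226 lies between BBS2 and NUP93 on chromosome 11 of the Coturnix japonica 2.1 gene table, which gives it no symbol, so its function is not described. Birds at 10Lv had 37.6, 0, 0, 0, 180.3 and 153 CPM, and birds at 12Lv had 1243, 2205, 2755, 357, 2588 and 0 CPM. The first 5 replicates at 12Lv were above every 10Lv bird. The sixth, a library with 963 genes detected, had 0 of 6507 counts, which allows up to 461 CPM, above every 10Lv value. Counts were 4 in 3 birds at 10Lv and 232 in 5 birds at 12Lv, and the means were 61.8 ± 82.9 and 1525 ± 1173 CPM (SD, n = 6 each). LOC107319226 rose by 5.02 ± 0.68 on the log2 scale (SE; edgeR adjusted p = 3.736e-07), with an exact permutation p of 0.01515 (0.9996 adjusted).

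Pooled over birds, the 12Lv level of LOC107319226 was 45.3 times the 10Lv level (95% exact counting interval 17.5 to 168). The call held with each bird left out, with log2 fold changes from 4.75 to 5.74 and adjusted p of at most 7.509e-06. The highest value came without 10Lv replicate 5, which held 2 of the 4 counts at 10Lv. The call also held in 10 of the 11 other settings in which it was tested. The exception was limma on the deposited values (adjusted p = 0.6549). Without 12Lv replicate 5, which held 117 counts (50.4%), the ratio was 38.4 (14.6 to 143).

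**Figure D2:**
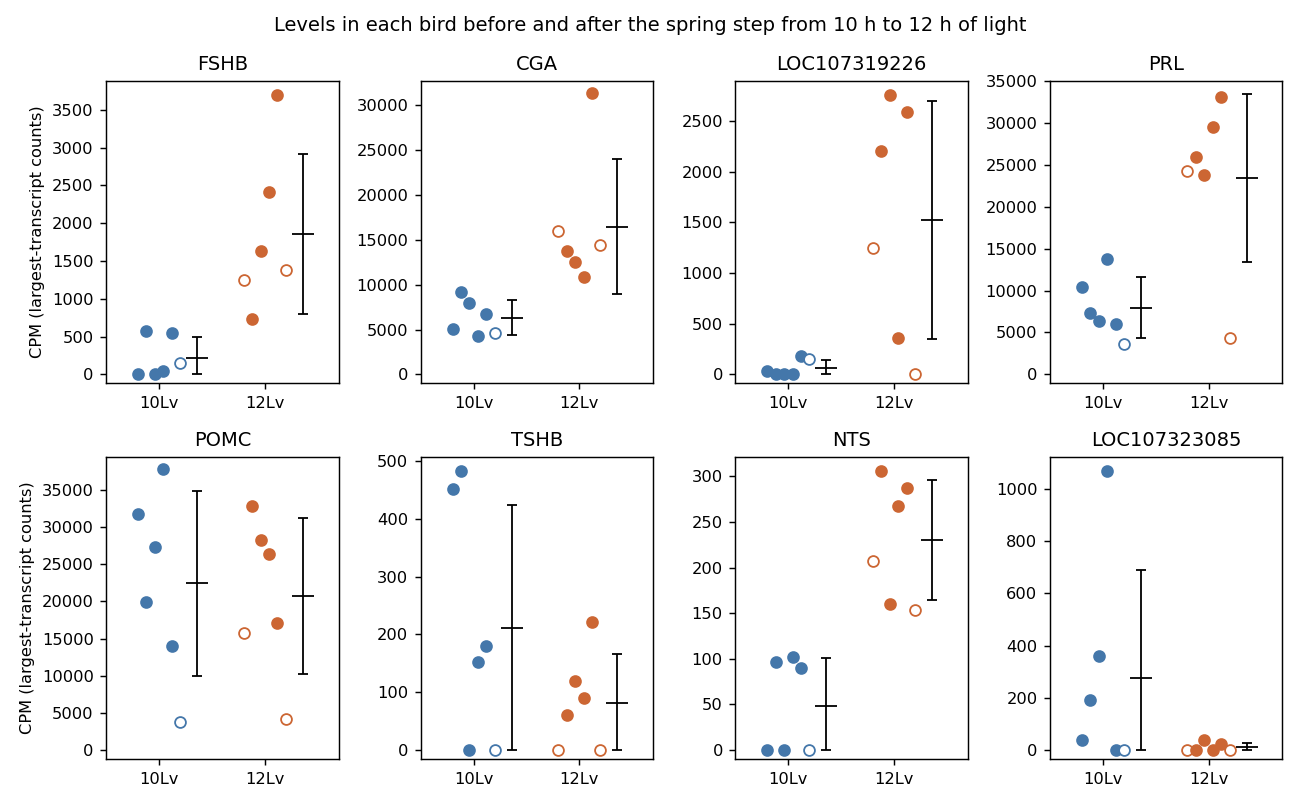
CPM in each bird at 10Lv (blue) and 12Lv (orange) for 8 genes, 1 panel per gene with its own scale. Open circles are libraries with under 2000 genes, and the black bars are the mean and SD of 6 birds, cut at 0. The groups do not overlap in FSHB, CGA and NTS, 1 bird at 12Lv is low in LOC107319226 and PRL, and the groups overlap in POMC and TSHB.

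PRL, the prolactin gene, was higher in 5 of 6 birds at 12Lv than in any bird at 10Lv. Birds at 10Lv had 10485, 7341, 6419, 13790.2, 6041 and 3669 CPM, and birds at 12Lv had 24245, 25905, 23755, 29564, 33075 and 4303 CPM. The low 12Lv bird was replicate 6, and the lowest 10Lv bird was also replicate 6, both libraries with few genes. The means were 7958 ± 3612 and 23475 ± 10034 CPM (SD, n = 6 each), from 788 and 2989 counts. The log2 fold change was 1.47 ± 0.44 (SE; edgeR adjusted p = 0.2948) with an exact permutation p of 0.01299 (0.9996 adjusted), so that PRL did not pass across all genes. It passed without the libraries under 2000 genes (1.73, adjusted p = 0.04566) and with the bird rank as a factor (1.41, adjusted p = 0.002054). Its receptor PRLR had 7 counts at 10Lv and 5 at 12Lv, with a log2 fold change of -0.66 ± 0.89 (SE).

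Ratios between hormone genes within a library do not depend on its total. 4 such ratios are given as a description, with no test, since they were chosen after the levels of these genes had been seen. FSHB stood at 0, 63.2, 0, 11.8, 80.0 and 33.3 counts per 1000 CGA counts in the 10Lv birds and at 77.9, 53.3, 131, 223, 118 and 95.7 in the 12Lv birds. At 12Lv 4 of 6 birds were above every 10Lv bird. The means were 31.4 ± 33.9 and 117 ± 59.1 (SD, n = 6 each), and the 2 groups overlapped between 53.3 and 80.0.

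PRL stood at 330, 369, 235, 365, 432 and 960 counts per 1000 POMC counts in the 10Lv birds and at 1539, 788, 840, 1118, 1939 and 1037 in the 12Lv birds. The single 10Lv bird inside the 12Lv range was replicate 6, with 725 genes detected. The means were 449 ± 259 and 1210 ± 446 (SD, n = 6 each). Without the libraries under 2000 genes they were 346 (n = 5) and 1171 (n = 4). CGA per 1000 POMC counts had means of 452 ± 396 and 1267 ± 1219 (SD, n = 6 each), with 2 of 6 birds above every 10Lv bird. PRL per 1000 CGA counts had means of 1423 ± 995 and 1565 ± 831 (SD, n = 6 each), and no 12Lv bird was above every 10Lv bird.

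POMC, the corticotroph precursor gene, showed overlapping groups. Birds at 10Lv had 31756, 19898, 27304, 37758, 13977 and 3821 CPM, and birds at 12Lv had 15749, 32887, 28267, 26438, 17057 and 4149.7 CPM. No 12Lv bird lay outside the 10Lv range, and the lowest bird of each group was replicate 6. The log2 fold change was -0.20 ± 0.55 (SE; edgeR adjusted p = 0.9992), and its sign changed when the libraries under 2000 genes, 10Lv replicate 4 or 12Lv replicate 6 was left out (0.026, 0.15 and 0.038).

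TSHB was at 451, 483, 0, 153, 180.3 and 0 CPM in the 10Lv birds and at 0, 61.2, 119.8, 89.3, 221 and 0 CPM in the 12Lv birds. The groups overlapped, and 2 birds of each group had no count. From 22 counts at 10Lv and 15 at 12Lv the log2 fold change was -0.87 ± 0.61 (SE; edgeR adjusted p = 0.9992; exact permutation p = 0.2316). TSHB thus had a negative value where CGA, its partner subunit, had a positive one.

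Other genes of the photoperiod pathway were too sparse to test. DIO2, the deiodinase gene whose product makes active thyroid hormone, had 6 counts in 4 birds at 10Lv and 7 in 3 birds at 12Lv. EYA3, in mammals a coactivator of the TSHB gene, had 1 and 5 counts. OPN5, a photopigment of the deep brain, had 0 and 1. DIO3, which encodes the deiodinase that inactivates thyroid hormone, had none in either group, which allows up to 35.2 CPM at 10Lv and 27.5 CPM at 12Lv over the group totals of 85307 and 109105 counts, counting error only.

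Complete separation of the birds in CPM occurred in 6 genes, 5 with every 12Lv bird above every 10Lv bird (0.342% of genes tested) and 1 with every 12Lv bird below (0.0685%). Besides FSHB and CGA these were NTS, DDOST, EIF5 and SEM1, which were picked out after their values had been seen. None of these 4 passed the threshold in edgeR (adjusted p = 0.9992 each), and each had an exact permutation p of 0.002165 (0.5267 adjusted). The separation depends on the scaling. In the deposited values 6 birds at 12Lv were above every 10Lv bird in FSHB, NTS and EIF5, 5 in CGA and 4 in DDOST. The share of all genes separated in those values was not counted.

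NTS encodes the precursor of neurotensin, a neuropeptide also made in endocrine cells. It was at 0, 96.6, 0, 101.8, 90.2 and 0 CPM in the 10Lv birds and at 207, 306, 159.7, 268, 288 and 154 CPM in the 12Lv birds. Every 12Lv bird had at least 1 count, while 3 of 6 birds at 10Lv had none. The log2 fold change was 2.23 ± 0.99 (SE) from 4 and 27 counts, and the pooled ratio was 5.28 (95% exact counting interval 1.84 to 20.8). 12Lv replicates 1 and 6, the shallow libraries, entered with a single count each.

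DDOST, a subunit of the oligosaccharyltransferase that adds sugar chains to secreted proteins, had 10 counts at 10Lv and 25 at 12Lv (log2 fold change 1.00 ± 0.63, SE). Its separation rests on birds with 1 count, since 12Lv replicate 6 stood at 153.7 and 10Lv replicate 6 at 152.9 CPM. EIF5, a translation initiation factor, had 6 and 22 counts (1.49 ± 0.71, SE). SEM1, a small subunit of the proteasome lid, was at 150.3, 290, 181, 204, 180.3 and 306 CPM in the 10Lv birds and at 0, 0, 39.9, 0, 111 and 0 CPM in the 12Lv birds. Every 10Lv bird had SEM1 counts and 4 of 6 birds at 12Lv had none, with 17 and 6 counts (-1.85 ± 0.71, SE). In 12Lv replicates 1 and 6 no count allows up to 622 and 461 CPM, above every 10Lv value of SEM1.

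LOC107323085, between TPD52L2 and CTNNBL1 on chromosome 20 of the gene table, was the gene that fell. Birds at 10Lv had 37.6, 193, 362, 1069, 0 and 0 CPM, and birds at 12Lv had 0, 0, 39.9, 0, 22.1 and 0 CPM. The groups overlapped, since 2 birds at 10Lv had no count, and no 12Lv bird exceeded 39.9 CPM. LOC107323085 fell by 3.81 on the log2 scale (SE 0.87; edgeR adjusted p = 0.01013), from 28 counts in 4 birds to 2 counts in 2 birds. The exact permutation p was 0.1061.

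10Lv replicate 4 alone held 21 of the 28 counts of LOC107323085 (75%). Without it the call was lost (-2.16, adjusted p = 0.9971), and the pooled level at 10Lv was 5.82 times that at 12Lv (95% exact counting interval 1.11 to 57.4) in place of 17.9 (4.52 to 155). It also missed the threshold with counts summed over transcripts, with no filter, in DESeq2 and in limma (adjusted p = 0.4554, 0.08248, 0.2187 and 0.9997), and it passed in the other 6 settings in which it was tested.

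The 10 genes with a positive value and the smallest p were FSHB, LOC107319226, CGA, PRL and 6 others, of which NELL2 had the most counts. NELL2, a secreted protein with EGF-like repeats, was at 225, 869, 362, 509, 90.2 and 0 CPM in the 10Lv birds and at 829, 674, 1677, 1161, 1106 and 154 CPM in the 12Lv birds. The groups overlapped, with 3 of 6 birds at 12Lv above every 10Lv bird. The log2 fold change was 1.47 ± 0.53 (SE; edgeR adjusted p = 0.9967; exact permutation p = 0.04113), and without the libraries under 2000 genes it passed (1.65, adjusted p = 0.04566).

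PTN, the growth factor pleiotrophin, had 14 counts in 3 birds at 10Lv and 45 in 6 birds at 12Lv (log2 fold change 1.43 ± 0.56, SE). SEC61G, a subunit of the channel through which secreted proteins enter the endoplasmic reticulum, had 14 and 50 counts (1.36 ± 0.53, SE), with 4 of 6 birds at 12Lv above every 10Lv bird. RARRES2, the precursor of the chemoattractant chemerin, had 4 and 24 counts (2.04 ± 0.76, SE). LOC107314042, a protein-coding locus next to NELFA, had 7 and 29 counts (1.75 ± 0.66, SE). PPP1R1C, an inhibitor of protein phosphatase 1, had 1 and 14 counts, a pooled ratio of 10.9 (95% exact counting interval 1.67 to 463). Its 14 counts came from 3 birds, and the exact permutation p over birds was 0.1818. None of these 5 passed the threshold, and the lowest adjusted p among them was 0.9967.

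The genes with a negative value and the smallest p, after LOC107323085, were sparse at 12Lv. LOC107315543, a long non-coding RNA gene, had 18 counts in 6 birds at 10Lv and 4 in 2 birds at 12Lv (log2 fold change -2.24 ± 0.78, SE). LOC116652978, a long non-coding RNA gene between HEY1 and MRPS28, had 19 counts in 6 birds and 5 in 2 birds (-2.03 ± 0.73, SE). In each of these 2 genes 5 of 6 birds at 12Lv had a CPM below every 10Lv bird. The lowest 10Lv birds stood at 50.9 and 96.6 CPM. 12Lv replicates 1 and 6 had no count, which allows up to 622 and 461 CPM, so these birds cannot be placed below them. The share of all genes with 5 of 6 birds below was not counted.

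LOC107308413, a long non-coding RNA gene between PIM3 and IL17REL, had 18 counts at 10Lv and 5 at 12Lv (log2 fold change -1.92 ± 0.74, SE). LMLN, a metallopeptidase, had 24 and 4 counts, 15 of the 24 in 10Lv replicate 1. AMN1 had 15 and 3 counts, MAP2K1, a kinase of the ERK cascade, 12 and 3, PROM1, a membrane protein of cell protrusions, 10 and 2, and API5, an apoptosis inhibitor, 8 and 1. Pooled ratios of 10Lv to 12Lv in these 4 genes ran from 5.12 (MAP2K1, 95% exact counting interval 1.38 to 28.3) to 10.2 (API5, 1.37 to 454), and none passed the threshold (edgeR adjusted p from 0.9967 to 0.9992).

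Gene lists for the gland's cell types and for cell functions were then counted, each beside the 52.1% of all genes tested with a positive value and their median of 0.03. No member of any list passed the threshold except FSHB in the hormone list. Of 27 gonadotroph regulators with counts in the 54 birds, 6 had no count in the 12 birds compared. The test covered 9, of which 6 had a positive and 3 a negative value, and none had an unadjusted p under 0.05. EGR1, an immediate early transcription factor, had 4 counts in 3 birds at 10Lv and 25 in 2 birds at 12Lv (log2 fold change 2.05 ± 1.10, SE). NR5A1, the steroidogenic factor that marks gonadotrophs, had 4 and 12 counts (1.21 ± 0.83, SE). NEUROD1 had 5 and 13 (1.02 ± 0.79, SE), and PITX1, a pituitary homeobox factor, had 4 counts in 1 bird and 9 in 5 birds (0.95 ± 0.89, SE). These 4 are the tested members of smallest p, and all had a positive value. The median of the 9 was 0.46, and it ran from 0.19 (without 10Lv replicate 1) to 0.77 (without 10Lv replicate 2) with 1 bird left out. In the other settings it ran from 0.0 with no filter, where 11 of 27 members had a positive value, to 0.85 in limma. These 27 include the 6 members without a count in the 12 birds. All 3 tested genes of the thyrotroph and pars tuberalis list, TSHB, TEF and HLF, had a negative value (median -0.87, from -1.20 to -0.42 with 1 bird left out). In other settings 1 of 3 was positive in limma, 1 of 5 with summed transcripts and 4 of 11 with no filter (median 0.0). Of those 11, 2 had no count in the 12 birds.

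Of 35 tested endoplasmic reticulum translocation and folding genes, 29 had a positive value, with a median log2 fold change of 0.43, none past the threshold and 2 at an unadjusted p under 0.05. The number depended on the setting. It was lowest in limma (23 of 35), with 24 of 35 without 10Lv replicate 1 and 24 of 36 with summed transcripts. It was 29 of 35 without ACOT9 and 29 of 36 without 12Lv replicate 1 or replicate 6. With 1 bird left out the median ran from 0.29 (without 10Lv replicate 6) to 0.66 (without 10Lv replicate 4). The 2 at an unadjusted p under 0.05 were SEC61G and KDELR2, a receptor that returns resident proteins to the endoplasmic reticulum (5 and 19 counts, 1.45 ± 0.73, SE). P4HB, a protein disulfide isomerase, had 6 and 20 counts (1.33 ± 0.72, SE), and HSP90B1, the chaperone GRP94, had 16 and 39 (0.93 ± 0.53, SE), with 5 of 6 birds at 12Lv above every 10Lv bird and 12Lv replicate 1 at 0. The summed level of the list was 4941 ± 1394 CPM at 10Lv and 6274 ± 2104 CPM at 12Lv (SD, n = 6 each), a difference smaller than the spread at 12Lv.

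Exocytosis genes had 5 positive values of 6 tested (median 0.73), among them RAB11A, a GTPase of recycling vesicles (6 and 22 counts; 1.48 ± 0.70, SE). Proteasome genes had 9 of 13 positive (median 0.34, or 0.092 without 12Lv replicate 4). The list does not hold SEM1, the lid subunit described above, which had a negative value (-1.85). Translation factors had 15 of 25 positive (median 0.12, or 0.31 without 10Lv replicate 4). Secretory granule genes had 3 of 7 positive (median -0.25), and the median was above 0 without 10Lv replicate 3 (0.18) or replicate 4 (0.020) and in limma (0.14). Among them were CHGA, chromogranin A, at 13323 ± 9365 and 11367 ± 6299 CPM, and CHGB, chromogranin B, at 897 ± 606 and 1447 ± 940 CPM (SD, n = 6 each). Of the 3 tested regulators of lactotrophs and somatotrophs, POU1F1, the pituitary factor that drives prolactin, growth hormone and thyrotropin genes, had 51 and 53 counts (log2 fold change -0.28 ± 0.48, SE), and GHRHR, the receptor of growth hormone-releasing hormone, had 23 counts in each group.

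Clock genes had 1 positive value of 6 tested (median -0.58, from -0.95 to -0.21 with 1 bird left out), and 3 of 6 in limma. TEF and HLF are in this list and in the thyrotroph and pars tuberalis list, so the 2 lists are not separate. TEF, a clock-controlled transcription factor that in mammals acts on the TSHB promoter in the pars tuberalis, had 9 counts in 5 birds at 10Lv and 3 in 1 bird at 12Lv. Steroid and thyroid receptors had 3 of 5 positive (median 0.15, or -0.16 without 12Lv replicate 4), with ESR1, the estrogen receptor alpha, at 16 and 13 counts. Of the 2 tested corticotroph genes, FKBP5, which glucocorticoids induce, had 4 and 16 counts (log2 fold change 1.64 ± 0.83, SE), and AVPR1B, the pituitary vasopressin receptor, had 6 and 5. Immediate early genes had 2 of 3 positive (median 0.73, from 0.33 to 1.56 with 1 bird left out). Metal and redox genes had 8 of 13 positive (median 0.18, or -0.017 without 12Lv replicate 5), and 1 proliferation gene was tested, STMN1 (0.89 ± 0.66, SE). The 52 oxidative phosphorylation genes had 26 positive and 26 negative values (median -0.01, from -0.12 to 0.13 with 1 bird left out). The 73 cytosolic ribosomal protein genes had 38 positive and 35 negative values and a median of 0.04, which became -0.02 with size factors by median of ratios and -0.01 with the library total alone. Without 12Lv replicate 5, 21 of 73 were positive (median -0.23), and with no filter 56 of 74 were (median 0.20).

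**Figure D3:**
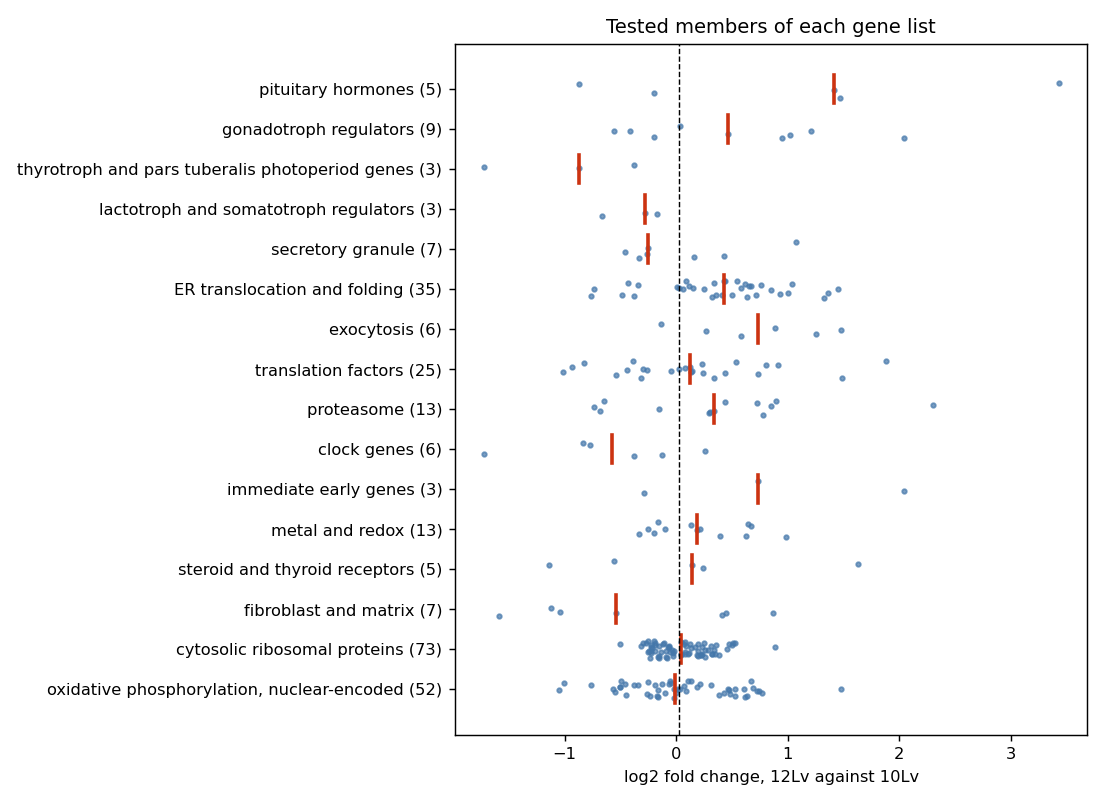
Log2 fold change of 12Lv against 10Lv (x axis) for every tested member of each gene list with at least 3 tested members, 1 blue point per gene, with the number tested in brackets. Red lines are the medians of the lists and the dashed line is the median of all genes tested, 0.03. The median of the 5 hormone genes, 1.41, stands farthest to the right and is the value of CGA. FSHB and CGA levels were known when the step was singled out, so this place is not independent evidence. POMC (-0.20) and TSHB (-0.87) had negative values.

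Markers of other cells of the tissue were summed in each bird. These levels ran from 0 to 2170 CPM at 10Lv and from 768 to 1518 CPM at 12Lv for fibroblasts and matrix, from 0 to 263 and from 0 to 268 CPM for endothelium with CDH5 at 0, and from 0 to 271 and from 0 to 184 CPM for immune cells with CSF1R and LYZ at 0. Neural lobe and glia markers ran from 90.4 to 489 and from 0 to 179 CPM with GFAP, S100B and SOX10 at 0, and smooth muscle markers from 0 to 204 and from 0 to 122 CPM with DES at 0. Of these 5 lists, 10 genes were tested, 3 with a positive and 7 with a negative value. The median of the 7 tested fibroblast and matrix genes was -0.54, and it became 0.15 with counts summed over transcripts.

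VIM, the intermediate filament of mesenchymal cells, was the single member with an unadjusted p under 0.05. It was at 376, 386, 271, 407, 451 and 0 CPM in the 10Lv birds and at 207, 184, 279, 179, 66.4 and 0 CPM in the 12Lv birds. Apart from replicate 6 of each group, 1 bird at 12Lv was inside the 10Lv range (log2 fold change -1.12 ± 0.57, SE; edgeR adjusted p = 0.9992). MBP, the myelin basic protein, had 9 counts in 3 birds at 10Lv and 1 at 12Lv. The part of these markers in the results for FSHB, LOC107319226 and LOC107323085 was not tested.

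The same day lengths in the autumn arm, 12La and 10La, gave no gene past the threshold in either direction (0.0% of 1460 genes each), and these 12 birds are separate from the spring birds. Day length fell in that arm, so 12La came before 10La. The autumn step is given as 12La against 10La, so that a positive autumn value is a fall over time. The difference between the spring and the autumn step was tested directly, and no gene passed in either direction (0.0% each), with 52 genes (3.56%) at an unadjusted p under 0.05. FSHB was 3.43 ± 0.65 in spring and 1.36 ± 1.00 in autumn on the log2 scale, a difference of 2.07 ± 1.54 (SE; adjusted p = 0.9996). In autumn it had 5 counts at 10La and 21 at 12La, with mean levels of 26.6 and 62.8 CPM. The autumn means were below the spring mean of 1851 CPM at 12Lv, while the difference in fold change did not pass.

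LOC107319226 had a step of 5.02 ± 0.68 in spring and 0.28 ± 0.85 in autumn, where its means were 55.7 ± 65.8 CPM at 10La and 67.5 ± 63.6 CPM at 12La (SD, n = 6 each). The difference was 4.74 ± 1.32 (SE), with an adjusted p of 0.9105 in edgeR and of 0.02961 in DESeq2. It also passed with the bird rank as a factor (adjusted p = 0.03077) and without 12Lv replicate 4 or replicate 6 (0.03739 and 0.0192). Replicates 4 and 6 were the 12Lv birds with the lowest levels of this gene, at 357 and 0 CPM. In the remaining settings, and with each other bird left out, the difference missed the threshold (adjusted p from 0.06879 to 0.9994). CGA was 1.41 ± 0.41 in spring and -0.16 ± 0.41 in autumn, a difference of 1.57 ± 0.58 (SE; adjusted p = 0.9996). PRL was 1.47 ± 0.44 and 1.17 ± 0.44, a difference of 0.30 ± 0.61 (SE; adjusted p = 0.9996).

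Of the 7 tested fibroblast and matrix genes, 4 had an unadjusted p under 0.05 for the difference between the arms, against 3.56% of all genes tested. SPARC, a matrix glycoprotein, was -0.54 ± 0.49 in spring and 1.50 ± 0.40 in autumn (SE; difference -2.04 ± 0.64). VIM was -1.12 ± 0.57 and 1.14 ± 0.47 (difference -2.26 ± 0.74). COL1A2, a chain of type I collagen, had a difference of -2.65 ± 1.01, and COL3A1, the type III collagen chain, of -2.36 ± 1.10 (SE). EGR1 was 2.05 ± 1.10 and -1.98 ± 0.94 (difference 4.03 ± 1.44). None of these 5 differences passed the threshold (edgeR adjusted p = 0.9996 each). LOC107323085 was negative in both arms, -3.81 ± 0.87 and -1.84 ± 0.61 (SE).

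**Figure D4:**
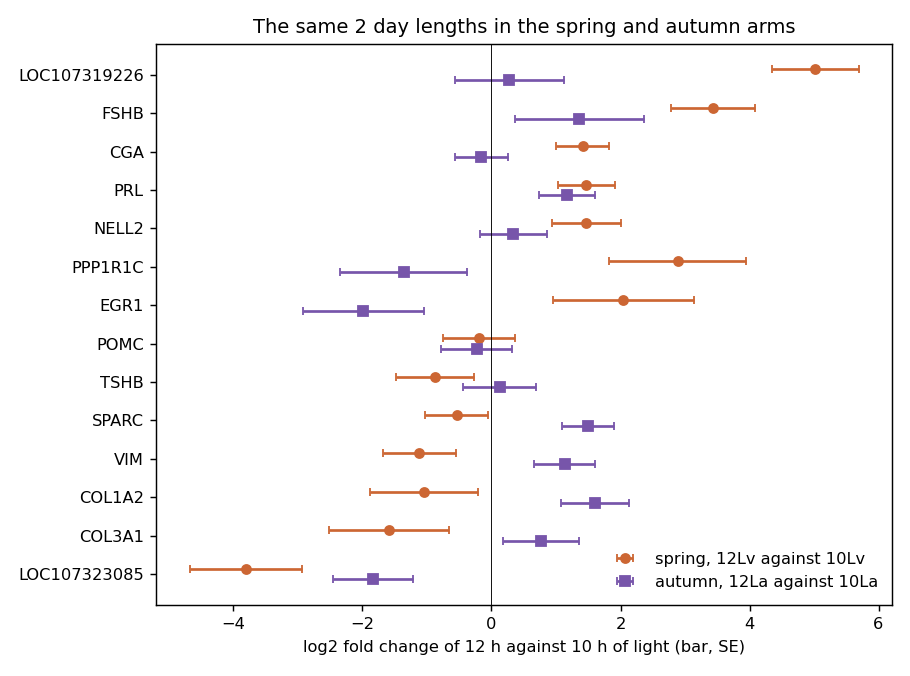
Log2 fold change of 12 h against 10 h of light with its SE (x axis) for 14 genes, in the spring arm (12Lv against 10Lv, orange circles) and in the autumn arm (12La against 10La, purple squares). LOC107319226 is at 5.02 and 0.28, CGA at 1.41 and -0.16, and PRL at 1.47 and 1.17, while SPARC and VIM lie below 0 in spring and above 0 in autumn.

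Along the spring arm, the 12Lv group held the highest mean of FSHB, CGA and LOC107319226, given here as levels without a further test. At 14 h of light in the autumn arm (14La) the means were 855 ± 509, 16090 ± 6254 and 1171 ± 394 CPM, in that gene order (SD, n = 6 each). The step was singled out with the levels of FSHB and CGA known, so their high place at 12Lv is not independent evidence. LOC107319226, LOC107323085 and NTS were picked from the comparison of 12Lv with 10Lv, so the same holds for their places at 12Lv. FSHB had no count in any of the 6 birds at 8L. From 10Lv to 16Lv its means were 221 ± 269, 1851 ± 1058, 291 ± 158 and 574 ± 415 CPM, in that order (SD, n = 6 each). The spread at 12Lv and 14Lv did not touch, with the lowest 12Lv bird at 735 and the highest 14Lv bird at 482 CPM. The share of all genes with such a gap between these groups was not counted. From 8L to 16Lv the means of CGA were 2875 ± 684, 6319.5 ± 1974, 16469 ± 7486, 13314 ± 6252 and 10307 ± 7604 CPM (SD, n = 6 each), and the last 3 groups overlapped widely.

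In the same order LOC107319226 had means of 58.9 ± 62.9, 61.8 ± 82.9, 1525 ± 1173, 591 ± 188 and 466 ± 339 CPM (SD, n = 6 each). Its low level at 8L and 10Lv differed by less than the spread between birds. PRL had its highest mean 1 step later, with 6452 ± 2984, 7958 ± 3612, 23475 ± 10034, 34596 ± 13301 and 21748 ± 16806.5 CPM (SD, n = 6 each). LOC107323085 had means of 173 ± 163 and 277 ± 413 CPM on the 2 shorter days and of 10.3 ± 17, 19.9 ± 38.7 and 10.4 ± 25.4 CPM from 12Lv on (SD, n = 6 each). NTS had no count at 8L and stood at 48.1 ± 52.8, 230.4 ± 66.1, 79.5 ± 71.7 and 162 ± 256 CPM at the 4 later photoperiods (SD, n = 6 each). Its mean at 14La in the autumn arm was higher, 803 ± 773 CPM (SD, n = 6).

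**Figure D5:**
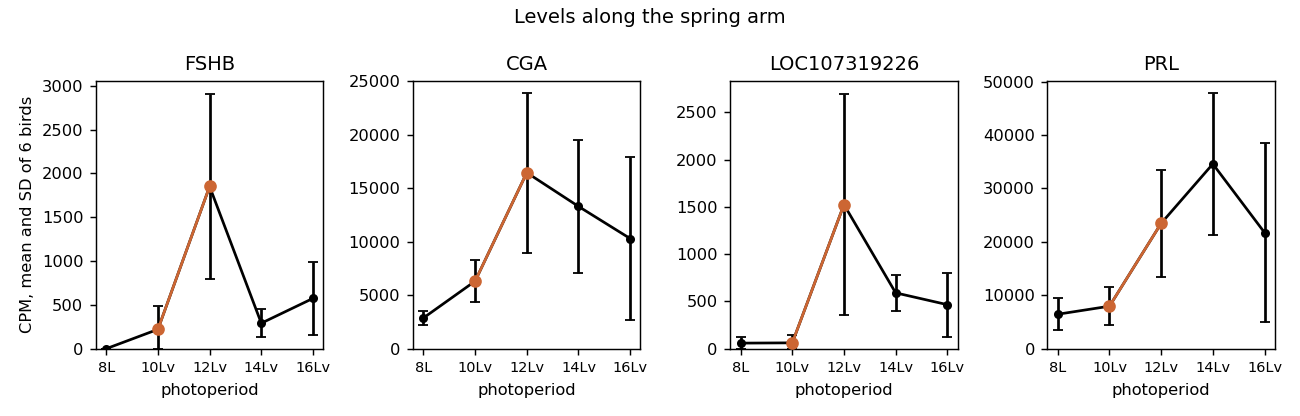
Mean CPM with SD of 6 birds (y axis, lower bars cut at 0) at the 5 photoperiods of the spring arm (x axis) for FSHB, CGA, LOC107319226 and PRL, with the step from 10Lv to 12Lv in orange. FSHB, CGA and LOC107319226 have their highest mean at 12Lv (1851, 16469 and 1525 CPM), and PRL at 14Lv (34596 CPM).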

How the data were processed

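Pituitary RNA of 54 male quail was sequenced, 1 library per bird, with an Oxford Nanopore direct cDNA kit, per the labels' protocols. The authors deposited estimated counts for 40282 transcripts and, per gene, a normalised signal that they call CPM but whose columns sum to between 327092 and 1790364. The submitters' processing notes name edgeR 3.24.3, Salmon 0.14.2 and minimap2 2.17, with the roles, strand setting and build not given in the sources used here, so no coordinates are printed. Gene names and neighbours come from the RefSeq gene table of Coturnix japonica 2.1, which matched all 40282 transcripts.

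A read can be counted on more than 1 transcript: in genes with 2 transcripts, 64.27% of 17713 values were equal within 0.01 counts. Each gene was therefore given its largest transcript count in each bird, rounded, and summing transcripts gave totals 2.08 times as high. Of 16448 genes, 1460 passed edgeR's filterByExpr with a minimum count of 3. Library totals of the 54 birds ran from 2813 to 77708 (median 20421).

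The test was edgeR 4.0.16's robust quasi-likelihood F-test (R 4.3.3, TMM scaling) over all 54 birds with 9 photoperiod means and 45 residual degrees of freedom, with Benjamini-Hochberg adjustment over all genes tested. The script was checked on simulated data. SE was taken as the log2 fold change over the square root of F. Two-sided exact permutation tests compared mean CPM of single genes. Counting intervals and floors of 3 counts cover counting error only.

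Alternatives were summed transcripts, other filters, other scaling, DESeq2 1.42.0, limma 3.58.1 on log2 of the deposited signal plus 1, only the birds compared, the log2 total as a covariate, the bird's rank by number as a factor, no ACOT9, no libraries under 2000 genes, and each bird left out. Named genes were the hormone genes, the genes past the threshold, the 10 of smallest p in each direction, the 4 tested members of smallest p of each list, and photoperiod genes. NTS, DDOST, EIF5, SEM1 and the ratios within a library were added after their values were seen. The members and lists were chosen with earlier results of these data known.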

Additional observations from a re-analysis of the deposited data

Results flagged for a closer look

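Single birds far from the rest of their group were sought in 20 sets of 6 birds, and 3 were found. The rule used gives about 1 in 20 for independent, normally distributed values, and its rate for these levels was not established. For CGA, 12Lv replicate 5 stood at 31327 CPM, well above the next 12Lv bird at 15956 CPM. For PRL, 12Lv replicate 6 stood at 4303 CPM, below the other 5 birds of its group, which lay between 23755 and 33075 CPM, and only 963 genes were detected in that library. For LOC107323085, 10Lv replicate 4 stood at 1069 CPM, and the next 10Lv bird at 362 CPM.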

How the results depend on the processing

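Of the genes higher at 12Lv, 2 passed in the test as reported. The number was 1 with summed transcripts (3615 genes tested) and with only the birds compared (219 tested), 0 in limma (56 genes of either direction at an unadjusted p under 0.05), 3 with a minimum count of 10, with size factors by median of ratios and in DESeq2, 4 with the rank of the bird number and 5 without the libraries under 2000 genes, and 2 with each bird left out. Of genes lower at 12Lv, 1 passed, and between 0 and 1 did with a bird left out. The number was 0 with summed transcripts, a minimum count of 10, no filter, DESeq2, limma or only the birds compared. LOC107323085 was itself not tested with a minimum count of 10 or with only the birds compared. LOC107319226 was not tested with only the birds compared. For the difference between spring and autumn step the number was 0, and 1 in DESeq2 and with the rank of the bird number, and between 0 and 1 with a bird left out. The labels pair no birds, and replicate numbers follow deposition order, which at 10Lv and 12Lv is also the order of bird numbers. With the rank of a bird's number as a replicate block, CGA (adjusted p = 0.0033) and PRL (0.002054) also passed. The bird of highest number had the fewest genes in 6 of 9 photoperiods, among them 10Lv and 12Lv. A check added after the data were seen correlated deviations from the group means across genes, in birds of equal rank at 10Lv and 12Lv. The correlations lay between -0.045 and 0.14, and 2 of 6 pairs correlated best with their own rank. With 6 pairs this check cannot decide whether birds of equal rank form a block. The rank was not taken as a pairing in the test as reported. The cause of the changes between settings was not tested.

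Log2 fold changes that changed sign were all of genes that did not pass. In limma these were EGR1 (-0.031), HLF (0.75), POU1F1 (0.95), GHRHR (1.14), CHGA (0.14), NR1D2 (1.34) and PRDX6 (-0.42), and with summed transcripts PRLR (0.84) and GHRHR (0.032). POMC was 0.026 without the libraries under 2000 genes. With 1 bird left out at a time they ranged from -0.43 to 0.15 in POMC, -0.38 to 0.32 in GHRHR, -1.99 to 0.050 in AVPR1B, -1.04 to 0.15 in PSMA3, -1.20 to 0.070 in FOS, -0.58 to 1.40 in STMN1, -0.063 to 1.33 in SELENOP and -0.0074 to 0.43 in FKBP4.

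Depth limits what is seen, since 1460 of 16448 genes had enough counts to be tested and a count of 0 in the 12Lv library with 6507 counts allows up to 461 CPM.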
